A study of Mus musculus with 32 samples.

Results

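The 41 genes described here encode the machinery that copies DNA: the factors that license origins, the replicative helicase and its activators, the polymerases and primase, the sliding clamp and its loaders, the enzymes that make deoxynucleotides, the kinase and cyclins of the G1/S transition, and the factors that join Okazaki fragments and rebuild chromatin. They were taken from a list of symbols, chosen with earlier results of these data known. Each was represented by the brightest probe annotated to it. All 41 had a named probe on the array, among 20655 named genes, and 39 of them passed the filter on dim probes and were tested among 23759 features. Orc1, the largest subunit of the origin recognition complex, was well above background on 6 of 32 arrays and Ccne2, cyclin E2, on 3, so neither was tested.

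Replication begins when the origin recognition complex, Cdc6 and Cdt1 load the ring of Mcm2 to Mcm7 onto DNA in G1. Cyclin E with Cdk2 and the kinase Dbf4-Cdc7 then start the conversion of the ring into the active helicase with Cdc45 and the GINS complex, after which polymerase alpha-primase lays primers and polymerases delta and epsilon extend them on the Pcna clamp. Many of these genes are transcribed under E2F control as cells enter the cycle. In the adult kidney most tubule cells are quiescent, and tubule cells that survive an injury are known to enter the cell cycle again.

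RNA came from ground whole kidney tissue of male mice, 12 to 16 weeks old, and was profiled on single-colour Agilent mouse arrays after a single dose of cisplatin, a platinum drug that crosslinks DNA and is toxic to tubule cells. There were 8 groups of 4 mice, each array being a separate animal. The miR-155-/- mice (strain B6.Cg-Mir155tm1.1Rsky/J) lack a microRNA gene active in immune cells, and their kidneys were taken 24, 48 or 72 h after 20 mg/kg cisplatin, or after saline in the mice labelled 0 h. The wild-type mice (strain C57BL/6, of like age and weight) had the same 4 groups. They came from Charles River Laboratories and the mutant stock originally from The Jackson Laboratory, so genotype and colony cannot be told apart. The microRNA that the mutants lack has the 5p mature form below, with its seed in capitals, bases 2 to 8 from the 5′ end (RefSeq, GRCm38.p6, chr16:84714143-84714165, plus strand); no probe named for its gene was used here, so the deletion itself was not checked.
miR-155-5p: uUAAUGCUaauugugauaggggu

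Values below are log2 signal relative to the 75th percentile of each array, so 0 is that percentile and a step of 1 is a doubling. Log2 differences between groups are given ± SE from the fit, 4 mice a group. Between 68.8% and 82.2% of probes were well above background on each array, and no spot was saturated. In whole kidney, fewer cells of a type and less RNA per cell cannot be told apart. All 10 proximal tubule markers and all 8 distal nephron markers were measured, and in wild-type saline kidneys the summed proximal level was 9.30 to 9.45. The first 2 components of all features held 40.3% and 15.8% of the variance. At the high end of the first lay miR-155-/- replicate 3 at 48 h, at 121, then miR-155-/- replicate 3 at 24 h, at 87.8. Replicate 4 of that 24 h group came next, at 70.6, and was not among the 2 arrays set apart below. In miR-155-/- replicate 3 at 48 h and at 24 h, the 6 red blood cell markers summed to 6.95 and 5.11. The other 3 mice of their groups gave -0.14 to 2.57 and 1.83 to 3.29. For some of the results that rest on these 2 arrays, but not for all, a value without them is also given.

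Cisplatin moved the replication genes in both directions. In miR-155-/- kidneys at 24 h, 22 of the 39 tested members were higher than in saline kidneys and 6 were lower, at an adjusted p under 0.05 in limma, when 26.6% of all features were called higher and 22.5% lower. At 48 h the counts were 20 higher and 4 lower, against 22.7% and 21.1% of all features, and at 72 h they were 14 and 3, against 17.7% and 17.5%. In wild-type kidneys 13 members were higher and 6 lower at 24 h (all features 21% and 17.6%), 4 and 6 at 48 h (12.2% and 11.6%), and 2 and 7 at 72 h (12.5% and 12.8%). The median log2 difference of the 39 members was 0.44, 0.32 and 0.38 in miR-155-/- kidneys, against -0.01, -0.05 and -0.02 over all features. In wild-type kidneys it was 0.33, 0.11 and 0.01, against 0.07, 0.00 and 0.03. The comparisons with saline within a genotype share the same 4 saline arrays.

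Of the 39 members, 24 were called higher in at least 1 of these 6 comparisons and 11 were called lower in at least 1. Mcm3 was the 1 gene called in both directions, higher in miR-155-/- kidneys at every time and lower in wild-type kidneys at 72 h. Pola1 and Prim2 were called lower in all 6. Cdc45, Gins4, Pola2, Pold1 and Tyms were called in none. At 24 h, 13 members were called higher and 5 lower in both genotypes, at 48 h 3 and 4, and at 72 h 1 and 2. The shares of all features with such patterns over several comparisons were not counted. These counts are therefore not shown to be particular to the members. Without the 2 arrays that stood apart, the counts in miR-155-/- kidneys were 22 higher and 7 lower at 24 h and 20 and 4 at 48 h.

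**Figure D1:**
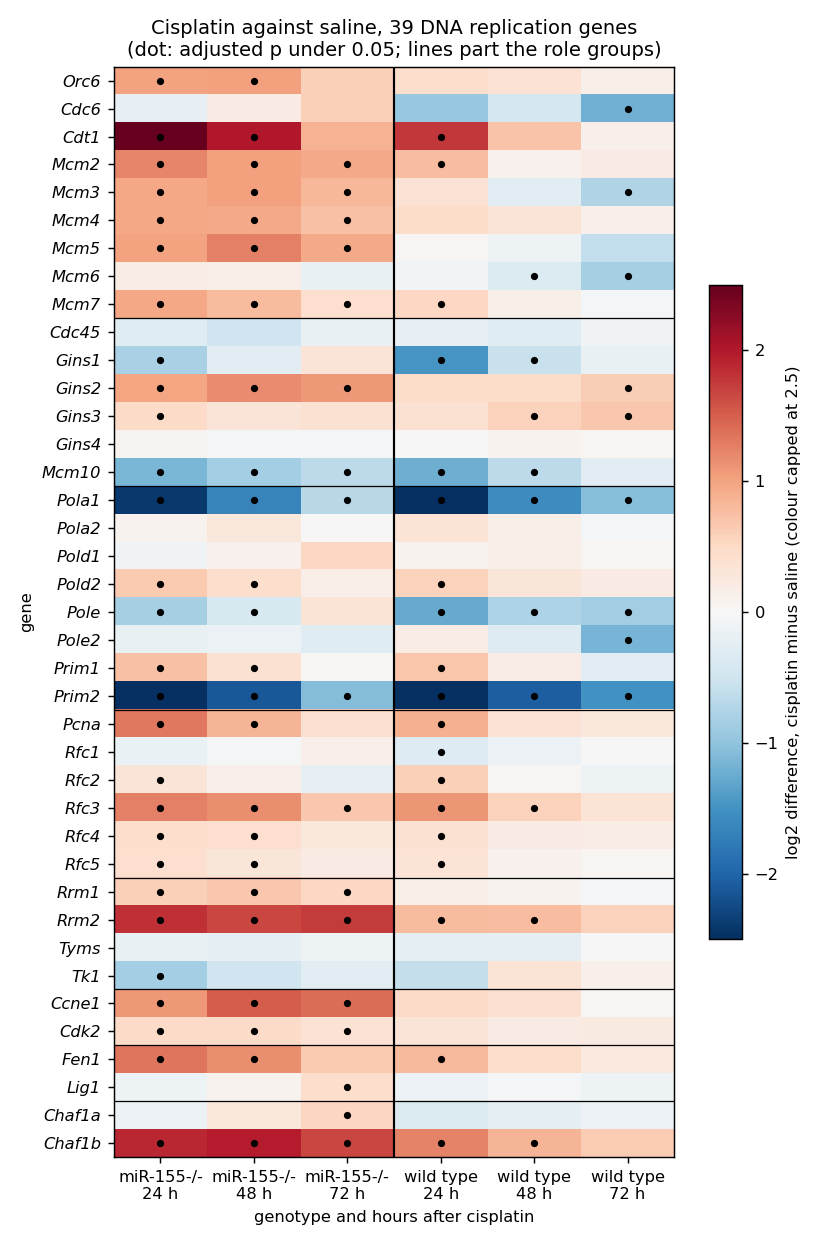
Log2 difference, cisplatin minus saline, for the 39 tested DNA replication genes (down) in miR-155-/- and wild-type kidneys at 24, 48 and 72 h (across), with a dot where the adjusted p was under 0.05 and lines between role groups. Most of the licensing genes and the clamp loader are red at 24 h, Pola1 and Prim2 are blue throughout, and the miR-155-/- columns hold 22, 20 and 14 members called higher against 13, 4 and 2 in the wild-type columns. Of all features, 26.6%, 22.7% and 17.7% were called higher in miR-155-/- and 21%, 12.2% and 12.5% in wild-type kidneys. The response was called different between genotypes for 0, 0 and 1 members at 24, 48 and 72 h.

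RefSeq promoters of GRCm38.p6, from 250 bases before to 50 after each start site, were matched by symbol for 33 of the 41 members. Mcm4, Gins1, Gins2, Gins4, Rfc2, Pole, Prim2 and Ccne2 are named only. The core of the E2F site was searched on both strands as TTTCCCGC or TTTGGCGC, words that do not overlap each other. It was found in 12 of the 33 members (36.4%), namely Mcm3, Mcm5, Mcm6, Mcm7, Cdc6, Cdt1, Gins3, Rfc3, Pola1, Pold1, Pole2 and Cdk2, against 486 of 27025 genes (1.80%). The CCAAT box stood in 20 of 33 members (60.6%) and in 41.1% of genes, and the sequence TTTGAA in 5 of 33 (15.2%) and in 20.2% of genes. Among members called higher, the promoters of Cdt1 with the E2F word and Chaf1b without it are shown. Among those called lower, Pola1 with it and Mcm10 without it are shown. They cross the motif with the direction of change, and the capitals mark the E2F words. The Mcm10 window ends in tttggcg, which lacks only the last base of TTTGGCGC, and bases past the window were not searched. Other forms of the E2F site were not searched either, so a promoter without these words may still hold a site.
Cdt1 (chr8:122567765-122568064, plus strand): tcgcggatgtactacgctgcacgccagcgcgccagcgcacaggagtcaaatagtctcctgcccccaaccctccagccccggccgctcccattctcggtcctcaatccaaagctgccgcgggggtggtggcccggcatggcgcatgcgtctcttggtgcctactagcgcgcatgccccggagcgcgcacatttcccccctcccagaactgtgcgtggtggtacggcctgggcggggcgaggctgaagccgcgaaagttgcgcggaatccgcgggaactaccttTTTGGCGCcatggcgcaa
Chaf1b (chr16:93883651-93883950, plus strand): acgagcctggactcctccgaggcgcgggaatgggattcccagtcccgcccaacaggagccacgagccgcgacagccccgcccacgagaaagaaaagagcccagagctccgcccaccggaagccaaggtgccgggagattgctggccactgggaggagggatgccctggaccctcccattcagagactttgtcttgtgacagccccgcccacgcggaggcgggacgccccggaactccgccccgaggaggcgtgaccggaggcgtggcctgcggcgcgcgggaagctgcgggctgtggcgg
Pola1 (chrX:93632106-93632405, minus strand): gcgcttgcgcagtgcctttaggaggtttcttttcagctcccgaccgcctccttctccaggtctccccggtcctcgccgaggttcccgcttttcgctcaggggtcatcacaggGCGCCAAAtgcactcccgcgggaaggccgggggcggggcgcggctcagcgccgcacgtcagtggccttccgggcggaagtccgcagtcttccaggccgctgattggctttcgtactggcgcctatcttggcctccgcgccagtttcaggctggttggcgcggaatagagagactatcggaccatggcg
Mcm10 (chr2:5012742-5013041, minus strand): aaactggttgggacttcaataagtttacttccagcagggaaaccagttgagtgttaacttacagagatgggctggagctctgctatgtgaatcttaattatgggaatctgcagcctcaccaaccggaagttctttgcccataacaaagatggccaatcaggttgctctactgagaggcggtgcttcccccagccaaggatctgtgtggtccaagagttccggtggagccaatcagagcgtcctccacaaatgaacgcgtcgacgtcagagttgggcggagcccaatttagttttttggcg

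In miR-155-/- kidneys at 24 h, 7 of the 12 members with it were called higher and 1 lower, against 12 and 2 of the 20 tested members with a promoter that lacks it. In wild-type kidneys at 72 h, 5 of the 12 with it were called lower and 1 higher, and of the 20 without it none was called in either direction. Those called lower were Cdc6, Mcm3, Mcm6, Pola1 and Pole2. At the other times, members with the word were called higher and lower in 6 and 1 cases at 48 h and 5 and 1 at 72 h in miR-155-/- kidneys, against 12 and 1 and 7 and 1 of those without it. In wild-type kidneys the counts with the word were 3 and 1 at 24 h and 2 and 2 at 48 h, against 9 and 2 and 2 and 1 without it. Of all features, 26.6%, 22.7% and 17.7% were called higher and 22.5%, 21.1% and 17.5% lower in miR-155-/- kidneys at 24, 48 and 72 h. In wild-type kidneys 21%, 12.2% and 12.5% were called higher and 17.6%, 11.6% and 12.8% lower. Some of the counts by motif lie near these shares. The split by motif was made after the calls were known and was given no test.

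Among the licensing factors, 7 of 9 were called higher in miR-155-/- kidneys at 24 h and at 48 h, and 5 at 72 h, with none lower. In wild-type kidneys 3 were higher at 24 h, none was higher at 48 h or 72 h, and 1 and 3 were lower at those times. Of all features, 26.6%, 22.7% and 17.7% were called higher in miR-155-/- kidneys at 24, 48 and 72 h. In wild-type kidneys 21%, 12.2% and 12.5% were called higher, and 17.6%, 11.6% and 12.8% lower. The 1 lower at 48 h is near that share. Cdt1, which brings the Mcm ring to the origin, had the largest difference of the 9 at 24 h in both genotypes. In miR-155-/- kidneys its level was 0.06, 0.29, 0.25 and 0.50 in saline-injected mice, 2.08, 2.44, 3.61 and 3.02 at 24 h, 1.88, 1.63, 3.99 and 1.63 at 48 h, and 1.46, 1.10, 1.40 and 0.59 at 72 h. Wild-type kidneys read 0.13, 0.86, 0.40 and 0.50 in saline-injected mice, 2.06, 2.76, 1.59 and 2.59 at 24 h, 1.36, 1.63, 0.83 and 0.95 at 48 h, and 0.61, 0.50, 0.65 and 0.65 at 72 h. All 8 arrays at 24 h lay above all 8 saline arrays, and by 72 h the wild-type values lay within the saline range. The difference from saline was 2.51 ± 0.37 (adjusted p = 3.74e-06) in miR-155-/- kidneys at 24 h and 1.78 ± 0.37 (adjusted p = 0.000357) in wild-type kidneys. At 48 h it was 2.01 ± 0.37 (adjusted p = 8.58e-05) in miR-155-/- kidneys, or 1.44 without the array that read 3.99.

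Of the 6 subunits of the Mcm ring, Mcm2, Mcm3, Mcm4, Mcm5 and Mcm7 rose in miR-155-/- kidneys at all 3 times, and Mcm6 at none. At 24 h their differences were 1.22 ± 0.26 for Mcm2, 0.96 ± 0.26 for Mcm3, 0.97 ± 0.21 for Mcm4, 1.0 ± 0.32 for Mcm5 and 0.96 ± 0.15 for Mcm7. Without replicate 3 the 48 h differences of Mcm2 and Mcm4 were 0.63 and 0.62, against 1.02 ± 0.26 and 0.96 ± 0.21 with it. In wild-type kidneys at 24 h, Mcm2 (0.77 ± 0.26) and Mcm7 (0.51 ± 0.15) were called higher. Mcm5 read -2.32, -2.24, -2.26 and -2.10 in saline-injected mice, -1.87, -1.46, -0.39 and -1.20 at 24 h, -1.24, -1.47, 0.29 and -1.43 at 48 h, and -1.10, -1.43, -0.91 and -1.72 at 72 h in miR-155-/- kidneys. The wild-type values were -1.81, -0.81, -1.89 and -1.66 in saline-injected mice, -1.68, -1.24, -1.85 and -1.29 at 24 h, -1.42, -1.20, -2.13 and -1.92 at 48 h, and -2.26, -2.10, -2.31 and -1.96 at 72 h. Every treated miR-155-/- array was above every miR-155-/- saline array, whereas the wild-type groups overlapped at 24 and 48 h. Wild-type saline replicate 2 was high, at -0.81, in this gene and in Mcm3.

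Mcm3 read -1.51, -1.30, -1.21 and -1.27 in saline-injected mice, -0.64, -0.20, -0.29 and -0.32 at 24 h, -0.50, -0.76, 0.70 and -0.68 at 48 h, and -0.26, -0.75, -0.05 and -0.93 at 72 h in miR-155-/- kidneys. In wild-type kidneys its values were -1.04, 0.06, -0.80 and -1.05 in saline-injected mice, -0.54, -0.13, -0.65 and -0.09 at 24 h, -0.52, -0.79, -1.33 and -1.23 at 48 h, and -1.39, -1.5, -1.53 and -1.39 at 72 h. At 72 h all 4 miR-155-/- arrays were above all 4 wild-type arrays, and the wild-type arrays were also below their own saline arrays. The wild-type fall at 72 h was -0.75 ± 0.26 (adjusted p = 0.0347), and it was no longer called without wild-type saline replicate 2, at -0.49 (adjusted p = 0.167), or with slide as a block, at -0.64 (adjusted p = 0.119), or scan day, at -0.67 (adjusted p = 0.068). Mcm6 read 2.15, 2.16, 1.95 and 2.04 in saline-injected mice, 2.42, 2.35, 2.11 and 2.22 at 24 h, 1.95, 2.24, 2.69 and 2.07 at 48 h, and 2.01, 1.80, 1.98 and 1.80 at 72 h in miR-155-/- kidneys. In wild-type mice the values were 2.48, 2.48, 2.16 and 2.43 in saline-injected mice, 2.21, 2.36, 2.32 and 2.39 at 24 h, 2.12, 2.03, 2.05 and 1.97 at 48 h, and 1.62, 1.56, 1.59 and 1.46 at 72 h. It fell in wild-type kidneys, with differences of -0.35 ± 0.11 (adjusted p = 0.0213) at 48 h and -0.83 ± 0.11 (adjusted p = 1.67e-06) at 72 h, and no array at 72 h reached the saline range. In miR-155-/- kidneys the difference at 72 h was -0.18 ± 0.11 (adjusted p = 0.223).

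Orc6, a subunit of the origin recognition complex, rose in miR-155-/- kidneys at 24 h (1.0 ± 0.24) and 48 h (1.03 ± 0.24, or 0.63 without the array that stands apart), and was not called in wild-type kidneys. Cdc6, which loads the ring with Cdt1, is a dim probe, well above background on 23 of 32 arrays. It was called lower in wild-type kidneys at 72 h, at -1.19 ± 0.42 (adjusted p = 0.036), with 2 of 4 arrays above background, against 4 of 4 in saline. That call held in 9 of 18 alternative settings, and was lost after normexp at -0.44 (adjusted p = 0.949), with scan day as a block (adjusted p = 0.0537), with the mean of its probes (adjusted p = 0.0661) and, at -0.94 (adjusted p = 0.144), when 1 array was left out. Its 2 probes disagreed in miR-155-/- kidneys: the brighter gave -0.20, 0.20 and 0.60 at 24, 48 and 72 h, and the other gave 1.31, 2.03 and 2.09. Orc1, which was not tested, was well above background on 4 of the 12 treated miR-155-/- arrays, against 0 of the 4 miR-155-/- saline arrays, and on 2 of the 12 treated wild-type arrays, against 0 of the 4 wild-type saline arrays.

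Of the helicase activation factors, Gins2, a subunit of the GINS complex, rose at all 3 times in miR-155-/- kidneys (0.98 ± 0.21, 1.19 ± 0.21 and 1.09 ± 0.21) and at 72 h in wild-type kidneys (0.62 ± 0.21). Gins3 rose at 24 h in miR-155-/- kidneys and at 48 and 72 h in wild-type kidneys (0.57 ± 0.20 and 0.68 ± 0.20). The wild-type Gins2 call was lost after normexp, at 0.48 (adjusted p = 0.284), and when 1 array was left out, at 0.55 (adjusted p = 0.0883). Leaving out 1 array also lost the wild-type Gins3 calls, at 0.45 (adjusted p = 0.133) at 48 h and 0.58 (adjusted p = 0.0524) at 72 h. The Gins3 rise in miR-155-/- kidneys was 0.47 ± 0.20 (adjusted p = 0.0459), and it was 0.31 (adjusted p = 0.193) without replicate 3 at 24 h. Cdc45 differed from saline by -0.50 to -0.09 in all 6 comparisons and passed the test in none. Gins1 and Mcm10 were called lower at 24 h in both genotypes.

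Gins1, another GINS subunit, read -2.67, -2.77, -2.95 and -2.61 in saline-injected mice, -4.04, -3.94, -2.79 and -3.48 at 24 h, -3.15, -3.11, -2.72 and -3.12 at 48 h, and -2.27, -2.51, -2.20 and -2.70 at 72 h in miR-155-/- kidneys. In wild-type kidneys it read -2.68, -2.12, -2.64 and -2.51 in saline-injected mice, -3.91, -3.89, -4.18 and -3.87 at 24 h, -2.96, -2.89, -3.21 and -3.08 at 48 h, and -2.85, -2.62, -2.60 and -2.60 at 72 h. All 4 wild-type arrays at 24 h were below all others of that genotype, whereas replicate 3 of the miR-155-/- group at 24 h, at -2.79, lay within the saline range. The difference at 24 h was -0.81 ± 0.19 (adjusted p = 0.000831) in miR-155-/- kidneys and -1.48 ± 0.19 (adjusted p = 5.45e-07) in wild-type kidneys. After normexp background correction neither was called, at -0.68 (adjusted p = 0.171) in miR-155-/- and -0.79 (adjusted p = 0.122) in wild-type kidneys. Mcm10, which binds the helicase as it is activated, read -0.35, -0.38, -0.19 and -0.28 in saline-injected mice, -1.61, -1.58, -1.13 and -1.47 at 24 h, -1.26, -1.39, -0.73 and -1.20 at 48 h, and -1.12, -0.80, -0.86 and -1.01 at 72 h in miR-155-/- kidneys. In wild-type kidneys its values were -0.24, -0.73, -0.77 and -0.14 in saline-injected mice, -1.72, -1.69, -1.56 and -1.82 at 24 h, -1.40, -1.37, -0.82 and -0.95 at 48 h, and -0.73, -0.76, -0.73 and -0.80 at 72 h. No treated array overlapped saline at 24 or 48 h. The difference at 24 h was -1.15 ± 0.15 (adjusted p = 9.41e-07) in miR-155-/- and -1.23 ± 0.15 (adjusted p = 3.5e-07) in wild-type kidneys, and at 72 h it was -0.65 ± 0.15 (adjusted p = 0.00136) in miR-155-/- kidneys at 72 h.

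At 24 h the log2 differences from saline of the 8 polymerase and primase genes ran from -3.19 to 0.72 in miR-155-/- kidneys and from -3.58 to 0.68 in wild-type kidneys. Prim2, the large subunit of primase, read -2.26, -2.01, -2.13 and -1.95 in saline-injected mice, -5.55, -5.11, -4.51 and -5.94 at 24 h, -4.23, -4.04, -4.57 and -4.01 at 48 h, and -3.10, -3.40, -2.99 and -3.16 at 72 h in miR-155-/- kidneys. Wild-type kidneys read -1.97, -1.62, -1.96 and -1.80 in saline-injected mice, -5.42, -5.77, -5.49 and -4.98 at 24 h, -3.72, -3.97, -3.99 and -3.93 at 48 h, and -3.19, -3.34, -3.56 and -3.33 at 72 h. Every treated array in both genotypes lay below every saline array, with the lowest values at 24 h and intermediate ones at 48 and 72 h. The difference from saline was -3.19 ± 0.20, -2.13 ± 0.20 and -1.08 ± 0.20 in miR-155-/- kidneys at 24, 48 and 72 h, and -3.58 ± 0.20, -2.06 ± 0.20 and -1.52 ± 0.20 in wild-type kidneys. After normexp the 24 h differences were -2.11 in miR-155-/- and -1.88 in wild-type kidneys, both still called. The 48 and 72 h differences in miR-155-/- kidneys were then -0.90 (adjusted p = 0.177) and -0.63 (adjusted p = 0.453), no longer called. In wild-type kidneys the 48 h difference was still called and the 72 h one was not, at -1.27 (adjusted p = 0.0676).

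Pola1, the catalytic subunit of polymerase alpha, which extends the primers that Prim1 and Prim2 make, followed the same course. In miR-155-/- kidneys it read -2.46, -2.47, -2.35 and -2.32 in saline-injected mice, -5.09, -4.80, -4.50 and -4.90 at 24 h, -3.83, -3.50, -5.05 and -3.87 at 48 h, and -2.93, -3.39, -3.01 and -3.04 at 72 h. The wild-type values were -2.26, -2.07, -2.33 and -2.25 in saline-injected mice, -4.88, -5.11, -4.96 and -5.06 at 24 h, -3.52, -3.77, -4.02 and -3.85 at 48 h, and -3.21, -3.31, -3.30 and -3.32 at 72 h. The groups did not overlap with saline at any time in either genotype. The difference at 24 h was -2.42 ± 0.20 (adjusted p = 3.23e-10) in miR-155-/- kidneys and -2.78 ± 0.20 (adjusted p = 1.94e-11) in wild-type kidneys. After normexp it was -1.63 in miR-155-/- and -1.36 in wild-type kidneys, still called, while the 48 and 72 h differences of both genotypes were not.

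Prim1, Pola2, Pold1, Pold2 and Pole2 did not follow the course of Prim2 and Pola1. Prim1, the catalytic subunit of primase, rose by 0.72 ± 0.14 in miR-155-/- and 0.68 ± 0.14 in wild-type kidneys at 24 h, and Pold2, a subunit of polymerase delta, by 0.65 ± 0.13 in miR-155-/- and 0.57 ± 0.13 in wild-type kidneys. Pola2, the accessory subunit of polymerase alpha, was called in neither genotype, with 24 h differences of 0.09 ± 0.16 in miR-155-/- and 0.33 ± 0.16 in wild-type kidneys. Pole2, a subunit of polymerase epsilon, fell in wild-type kidneys at 72 h, at -1.16 ± 0.23 (adjusted p = 0.000284), or -0.70 (adjusted p = 0.423) after normexp. Pold1, the catalytic subunit of polymerase delta, was not called against saline at any time, and 1 of its wild-type values at 72 h was missing, because the spot was flagged, so that its mean there rests on 3 mice.

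Pole, the catalytic subunit of polymerase epsilon on the leading strand, read -2.85, -2.64, -3.09 and -2.82 in saline-injected mice, -3.59, -3.46, -3.84 and -3.81 at 24 h, -3.23, -3.06, -3.56 and -3.15 at 48 h, and -2.51, -2.52, -2.39 and -2.65 at 72 h in miR-155-/- kidneys. In wild-type mice the values were -2.5, -2.07, -2.61 and -2.37 in saline-injected mice, -3.88, -3.71, -3.59 and -3.40 at 24 h, -3.05, -3.27, -3.25 and -3.09 at 48 h, and -3.14, -3.28, -3.32 and -3.29 at 72 h. At 72 h the 4 miR-155-/- arrays were above all 4 wild-type arrays, and 3 of them were above all of their own saline arrays, whereas the wild-type arrays stayed below theirs. In miR-155-/- kidneys the differences from saline were -0.82 ± 0.13, -0.40 ± 0.13 and 0.34 ± 0.13, the last not called, and in wild-type kidneys they were -1.26 ± 0.13, -0.78 ± 0.13 and -0.87 ± 0.13, all called. After normexp none of the called ones was still called, and the 48 h value in miR-155-/- kidneys was 0.19. Without the array that stands apart it was -0.29 (adjusted p = 0.074). Another Pole probe was not well above background on any array.

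**Figure D2:**
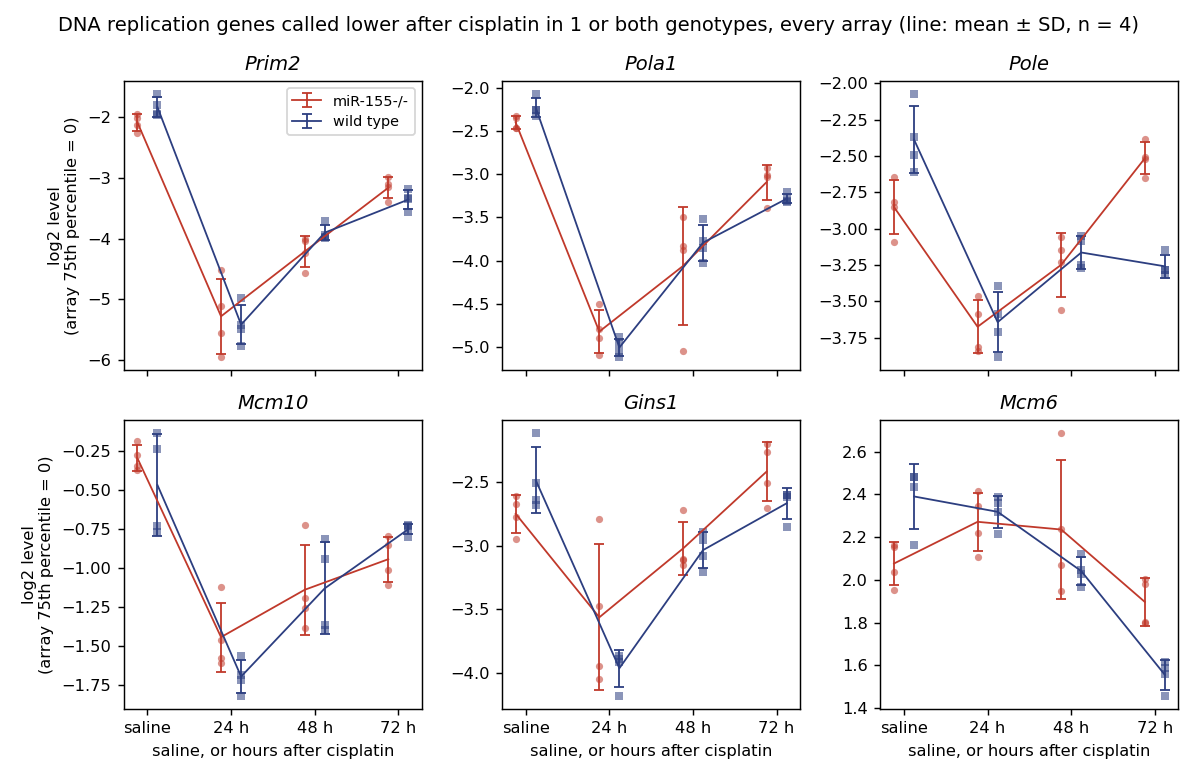
Log2 level in every array, relative to the array's 75th percentile, of 6 members called lower in 1 or both genotypes, for miR-155-/- (left points, red) and wild-type mice (right points, blue), with the mean ± SD of 4 mice. Prim2 and Pola1 are lowest at 24 h in both genotypes, and Pole at 72 h lies between -2.65 and -2.39 in miR-155-/- mice and between -3.32 and -3.14 in wild-type mice.

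The clamp and its loader were the group with the most members higher in both genotypes at 24 h, 5 of 6 in each. Of all features, 26.6% were called higher at that time in miR-155-/- and 21% in wild-type kidneys. Pcna, the sliding clamp that holds polymerases on DNA, read 1.93, 1.87, 1.96 and 1.87 in saline-injected mice, 2.77, 2.98, 3.80 and 3.32 at 24 h, 2.53, 2.38, 3.70 and 2.40 at 48 h, and 2.45, 2.28, 2.44 and 2.08 at 72 h in miR-155-/- kidneys. In wild-type kidneys it read 1.85, 2.0, 1.85 and 1.88 in saline-injected mice, 2.71, 3.01, 2.55 and 2.89 at 24 h, 2.45, 2.37, 2.13 and 2.07 at 48 h, and 2.18, 2.07, 2.22 and 2.19 at 72 h. At 24 h no treated array overlapped the saline arrays, and at 48 h replicate 3 of miR-155-/- stood more than 1 log2 unit above the others. The rise at 24 h was 1.31 ± 0.20 (adjusted p = 7.82e-06) in miR-155-/- kidneys and 0.89 ± 0.20 (adjusted p = 0.000917) in wild-type kidneys. At 48 h in miR-155-/- kidneys it was 0.85 ± 0.20 (adjusted p = 0.00141), or 0.53 (adjusted p = 0.000604) without the array that stands apart.

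Rfc3, a subunit of the clamp loader RFC, read -3.54, -3.20, -3.32 and -3.18 in saline-injected mice, -2.21, -2.09, -1.88 and -2.05 at 24 h, -2.36, -2.45, -1.37 and -2.38 at 48 h, and -2.64, -2.65, -2.54 and -2.71 at 72 h in miR-155-/- kidneys. Wild-type kidneys read -3.18, -2.96, -3.45 and -3.22 in saline-injected mice, -2.32, -1.93, -2.26 and -1.90 at 24 h, -2.53, -2.41, -2.77 and -2.83 at 48 h, and -2.89, -2.85, -2.91 and -2.77 at 72 h. No treated array overlapped the saline arrays of its genotype at any time, in miR-155-/- or in wild-type kidneys. Rfc3 was also called higher in wild-type kidneys at 48 h, but not after normexp, at 0.38 (adjusted p = 0.485). Rfc3 rose at 24 h by 1.25 ± 0.17 (adjusted p = 1.24e-06) in miR-155-/- and 1.10 ± 0.17 (adjusted p = 8.83e-06) in wild-type kidneys. Rfc4 and Rfc5 rose at 24 h by less, 0.44 ± 0.13 and 0.42 ± 0.12 in miR-155-/- and 0.39 ± 0.13 and 0.34 ± 0.12 in wild-type kidneys. Rfc2 rose by 0.32 ± 0.11 in miR-155-/- and 0.60 ± 0.11 in wild-type kidneys. The 24 h calls of Rfc2 in miR-155-/- and Rfc5 in wild-type kidneys each held in 12 of 18 alternative settings. After normexp neither was called, at 0.34 (adjusted p = 0.111) for Rfc2 and 0.30 (adjusted p = 0.098) for Rfc5. Rfc1, the large subunit, was not called in miR-155-/- kidneys at 24 h, at -0.17 ± 0.08, and fell in wild-type kidneys, at -0.33 ± 0.08 (adjusted p = 0.00142).

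In nucleotide supply, both subunits of ribonucleotide reductase, which makes deoxynucleotides, rose in miR-155-/- kidneys at all 3 times, and only the small subunit Rrm2 rose in wild-type kidneys. Rrm2 read -0.98, -0.97, -1.59 and -0.97 in saline-injected mice, 0.46, 0.31, 0.89 and 1.09 at 24 h, 0.19, 0.48, 1.41 and 0.09 at 48 h, and 1.23, 0.64, 0.82 and -0.18 at 72 h in miR-155-/- kidneys. The wild-type values were -0.54, -0.34, -0.89 and -0.29 in saline-injected mice, 0.22, 0.27, 0.04 and 0.59 at 24 h, 0.73, 0.38, -0.11 and 0.03 at 48 h, and 0.28, -0.07, 0.17 and -0.14 at 72 h. In each genotype all saline arrays were below all treated ones, and miR-155-/- saline replicate 3, at -1.59, was the lowest of all. The difference from saline was 1.82 ± 0.27, 1.67 ± 0.27 and 1.76 ± 0.27 in miR-155-/- kidneys and 0.80 ± 0.27, 0.77 ± 0.27 and 0.57 ± 0.27 in wild-type kidneys, the last not called. The wild-type call at 48 h was lost with slide as a block, at 0.74 (adjusted p = 0.0566), and when 1 array was left out, at 0.61 (adjusted p = 0.135), and that at 24 h when 1 array was left out, at 0.67 (adjusted p = 0.0708). Rrm1, the large subunit, rose by 0.59 ± 0.11, 0.68 ± 0.11 and 0.52 ± 0.11 in miR-155-/- kidneys. Tk1, thymidine kinase, fell in miR-155-/- kidneys at 24 h, at -0.86 ± 0.30 (adjusted p = 0.018), and Tyms, thymidylate synthase, was called at no time.

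Of the G1/S genes tested, both rose in miR-155-/- kidneys at all 3 times and neither in wild-type kidneys. Ccne1, cyclin E1, read -3.37, -3.15, -3.22 and -3.05 in saline-injected mice, -2.43, -2.47, -1.55 and -1.97 at 24 h, -2.16, -2.30, -0.11 and -2.16 at 48 h, and -1.53, -1.64, -1.51 and -2.53 at 72 h in miR-155-/- kidneys. In wild-type mice the values were -2.87, -2.63, -3.28 and -2.90 in saline-injected mice, -2.67, -2.28, -2.52 and -2.33 at 24 h, -1.95, -2.33, -3.04 and -2.78 at 48 h, and -3.04, -2.92, -2.80 and -2.80 at 72 h. All treated miR-155-/- arrays were above all miR-155-/- saline arrays, and the wild-type groups overlapped with saline at all 3 times. Another Ccne1 probe, well above background on 31 arrays, gave 1.2, 1.11 and 1.25 in miR-155-/- and 0.68, 0.92 and 0.36 in wild-type kidneys at 24, 48 and 72 h. The rise of the brighter probe in miR-155-/- kidneys was 1.09 ± 0.33 (adjusted p = 0.00697), 1.52 ± 0.33 (adjusted p = 0.000527) and 1.39 ± 0.33 (adjusted p = 0.00135) at 24, 48 and 72 h, and at 48 h 0.99 (adjusted p = 0.000779) without the array at -0.11. Cdk2, its kinase partner, rose by 0.48 ± 0.14, 0.48 ± 0.14 and 0.36 ± 0.14, and at 48 h by 0.30 without that array. After normexp Cdk2 was called at none of these times, with adjusted p = 0.367, 0.104 and 0.236. Its 72 h call held in 8 of 18 alternative settings, and was also lost with quantile scaling and with no filter on dim probes.

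In Okazaki fragment maturation, Fen1, the nuclease that removes the displaced primer strand, rose at 24 h in both genotypes and Lig1, the ligase that seals the nick, did not. Fen1 read 0.40, 0.35, 0.32 and 0.44 in saline-injected mice, 1.30, 1.5, 2.21 and 1.88 at 24 h, 1.10, 1.22, 2.82 and 1.03 at 48 h, and 1.37, 0.99, 1.15 and 0.64 at 72 h in miR-155-/- kidneys. In wild-type kidneys it read 0.32, 0.78, 0.35 and 0.61 in saline-injected mice, 1.17, 1.58, 0.98 and 1.59 at 24 h, 1.09, 1.25, 0.67 and 0.78 at 48 h, and 0.73, 0.73, 0.79 and 0.78 at 72 h. At 24 h the treated arrays were above the saline arrays in both genotypes, with differences of 1.34 ± 0.26 (adjusted p = 0.000127) in miR-155-/- and 0.82 ± 0.26 (adjusted p = 0.0138) in wild-type kidneys. At 48 h it was 1.16 ± 0.26 (adjusted p = 0.000732) in miR-155-/- kidneys, or 0.74 without replicate 3. Lig1 rose in miR-155-/- kidneys at 72 h alone among its 6 comparisons with saline, by 0.44 ± 0.13 (adjusted p = 0.00762).

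Chaf1b, a subunit of the chromatin assembly factor CAF-1, which places histones on new DNA, rose in 5 of 6 comparisons. It read -2.38, -2.32, -2.32 and -2.18 in saline-injected mice, -0.72, -0.71, -0.19 and -0.01 at 24 h, -0.74, -0.74, 0.95 and -0.83 at 48 h, and -0.40, -0.60, -0.49 and -1.01 at 72 h in miR-155-/- kidneys. Wild-type kidneys read -1.88, -1.30, -2.10 and -1.79 in saline-injected mice, -0.60, -0.45, -0.75 and -0.32 at 24 h, -0.81, -0.71, -1.17 and -1.02 at 48 h, and -1.24, -1.08, -1.18 and -1.06 at 72 h. Every treated array in both genotypes was above every saline array of its genotype. The differences were 1.89 ± 0.26 (adjusted p = 1.18e-06), 1.96 ± 0.26 (adjusted p = 8.39e-07) and 1.67 ± 0.26 (adjusted p = 7.99e-06) in miR-155-/- kidneys, and 1.24 ± 0.26 (adjusted p = 0.000336), 0.84 ± 0.26 (adjusted p = 0.0164) and 0.63 ± 0.26 (adjusted p = 0.0706) in wild-type kidneys, the last missing the threshold. Another Chaf1b probe gave 2.27, 2.29 and 1.94 in miR-155-/- and 1.41, 0.98 and 0.72 in wild-type kidneys. Chaf1a, its large partner, rose in miR-155-/- kidneys at 72 h by 0.55 ± 0.16 (adjusted p = 0.00675), and was not called after normexp, at 0.55 (adjusted p = 0.177).

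**Figure D3:**
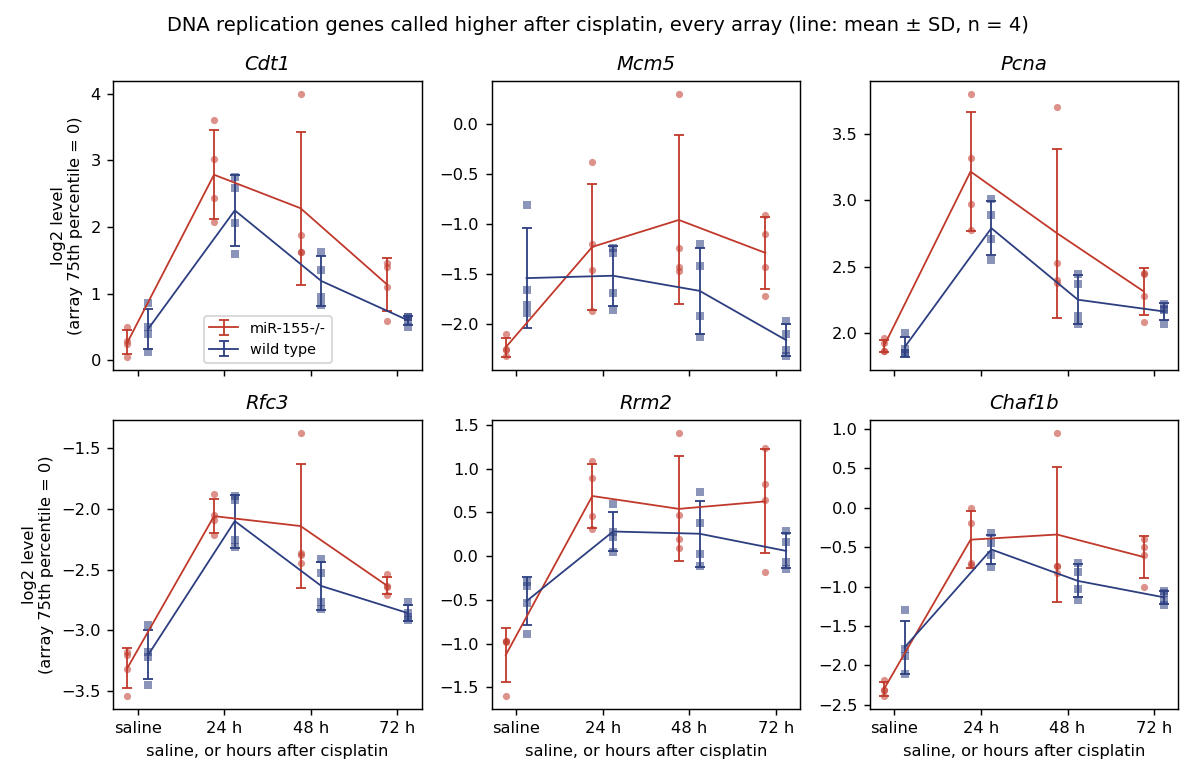
Log2 level in every array, relative to the array's 75th percentile, of 6 members called higher after cisplatin, for miR-155-/- (left points, red) and wild-type mice (right points, blue), with the mean ± SD of 4 mice. All are higher at 24 h than in saline in miR-155-/- mice, Mcm5 was not called in wild-type mice, and miR-155-/- replicate 3 at 48 h is the highest at 48 h in each panel, at 3.99 for Cdt1 and 3.70 for Pcna.

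The courses were compared directly at 72 h against 24 h after cisplatin. In miR-155-/- kidneys 9 members were higher at 72 h and 9 lower, against 13.6% and 18.3% of all features. In wild-type kidneys 6 were higher and 10 lower, against 11.9% and 14.7%. Several members that had fallen were higher at 72 h: Prim2 was 2.12 ± 0.20 in miR-155-/- and 2.06 ± 0.20 in wild-type kidneys, Pola1 1.73 ± 0.20 and 1.72 ± 0.20, and Gins1 1.14 ± 0.19 and 1.29 ± 0.19. After normexp the wild-type differences were not called, at 0.61 (adjusted p = 0.494) for Prim2, 0.49 (adjusted p = 0.566) for Pola1 and 0.59 (adjusted p = 0.34) for Gins1. Several that had risen were lower: Cdt1 was -1.65 ± 0.37 in miR-155-/- and -1.65 ± 0.37 in wild-type kidneys, and Pcna -0.90 ± 0.20 in miR-155-/- and -0.63 ± 0.20 in wild-type kidneys. Pold1 was higher at 72 h in miR-155-/- kidneys, by 0.60 ± 0.21, or 0.35 without the 2 arrays that stood apart. Chaf1b and Rrm2 were called in neither genotype. Both comparisons use the 24 h arrays that also enter the comparisons with saline.

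The genotypes were then set against each other at each time. In saline, 24 h and 48 h kidneys limma called 0 of the 39 members in either direction, against 0.114%, 0.08% and 0.101% of all features, and 8, 4 and 14 members had an unadjusted p under 0.05, against 3.33%, 9.3% and 15.1% of all features at that threshold. All 8 of those in saline were lower in miR-155-/- mice, and 13 of the 14 at 48 h were higher. At 72 h limma called 1 member, Pole, which was higher in miR-155-/- kidneys by 0.74 ± 0.13 (adjusted p = 0.00512), against 0.598% of all features called higher. It was not called after normexp, at 0.84 (adjusted p = 0.438). At 72 h 10 members had an unadjusted p under 0.05, all higher, against 10.9% of all features in either direction.

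The groups did not overlap in 15 of the 39 members at 72 h, all of them higher in miR-155-/- kidneys, against 6.04% of all features that were higher and not overlapping. In saline 10 members did not overlap, all lower in miR-155-/- kidneys, against 2.73% of all features. Mcm3, Mcm5, Mcm6, Mcm7, Pole, Rrm1, Lig1 and Chaf1b were in both counts, on opposite sides. In saline Mcm3 differed by -0.62 ± 0.26 (adjusted p = 1) and Mcm5 by -0.69 ± 0.32 (adjusted p = 1), and at 72 h by 0.96 ± 0.26 (adjusted p = 0.085) and 0.87 ± 0.32 (adjusted p = 0.237). In the slides that held arrays of both genotypes at 72 h, the median member difference was 0.33, 0.22 and 0.31, and in saline it was -0.19, -0.01 and -0.35.

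**Figure D4:**
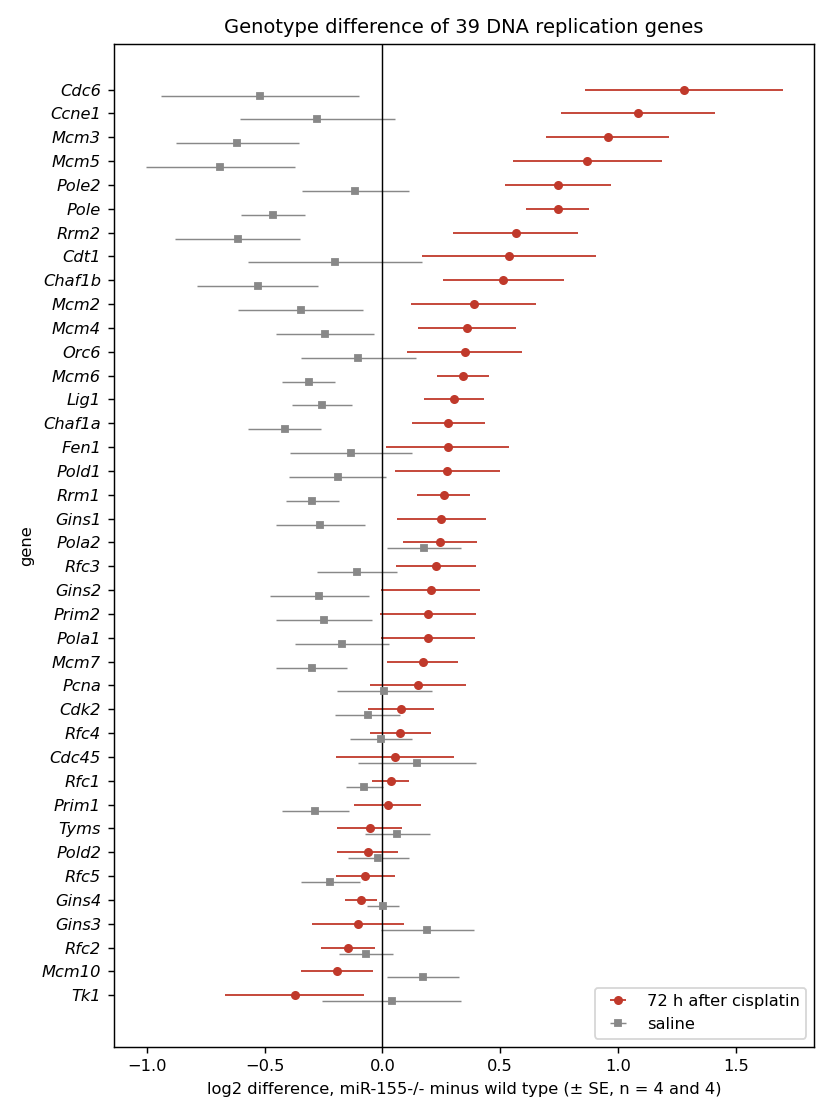
Log2 difference, miR-155-/- minus wild type, with its SE, of the 39 tested DNA replication genes at 72 h after cisplatin (red circles) and in saline-injected mice (grey squares), ordered by the 72 h value. Most points at 72 h lie right of 0 and most in saline left of it, and Pole, at 0.74 at 72 h and -0.46 in saline, is the 1 member called at 72 h.

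The interaction term tested whether the cisplatin response differed between genotypes. Limma called 0 members at 24 h and at 48 h, when 0% of all features were called, and 6 and 14 members had an unadjusted p under 0.05, against 3.31% and 7.16% of all features at that threshold. At 72 h it called 1, Pole, with a response 1.21 ± 0.19 (adjusted p = 0.00293) larger in miR-155-/- kidneys, against 0.177% of all features called larger. After normexp the estimate was 1.14 (adjusted p = 0.937), and leaving out each array in turn gave 1.10 to 1.28, called each time. At 72 h 14 members had an unadjusted p under 0.05, against 7.58% of all features, and all 14 were larger in miR-155-/- kidneys, with Mcm3 at 1.57 ± 0.37 (adjusted p = 0.0653) and Mcm6 at 0.66 ± 0.16 (adjusted p = 0.069) next after Pole. The median interaction over the 39 members was 0.27, 0.28 and 0.45 at 24, 48 and 72 h. An effect called in 1 genotype and not in the other is not shown to differ for the members that this term did not call.

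Genes of the wider pathway, from lists chosen with earlier results of these data known, were counted in the same fit. At 24, 48 and 72 h, 26.6%, 22.7% and 17.7% of all features were higher in miR-155-/- kidneys, and 22.5%, 21.1% and 17.5% lower. In wild-type kidneys 21%, 12.2% and 12.5% were higher, and 17.6%, 11.6% and 12.8% lower. The list counts below are to be read against these shares, and some lie near them. Of 34 other replication factors tested, 11, 12 and 10 were higher and 4, 1 and 4 lower in miR-155-/- kidneys at 24, 48 and 72 h, and 8, 3 and 2 higher and 5, 2 and 5 lower in wild-type kidneys. Pole3, a small subunit of polymerase epsilon, rose by 0.75 ± 0.11 in miR-155-/- kidneys at 48 h, and Pold4, the smallest subunit of polymerase delta, by 2.37 ± 0.37. Of 17 E2F and RB family genes, 2, 0 and 2 were higher and 8, 8 and 7 lower in miR-155-/- kidneys, and 3, 0 and 1 higher and 6, 3 and 5 lower in wild-type kidneys. E2f1, an activator of replication genes, rose at 24 h by 0.44 ± 0.14 in miR-155-/- and 0.43 ± 0.14 in wild-type kidneys.

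Of 12 other nucleotide supply genes, 4, 3 and 2 were higher and 3, 5 and 2 lower in miR-155-/- kidneys, and 3, 2 and 1 higher and 2, 1 and 1 lower in wild-type kidneys. Dck, deoxycytidine kinase, rose by 1.49 ± 0.19 in miR-155-/- kidneys at 24 h, and Dctd, dCMP deaminase, rose by 2.17 ± 0.25 there at 72 h. Rrm2b, a p53-induced reductase subunit, was -0.18 ± 0.15 in miR-155-/- and -0.09 ± 0.15 in wild-type kidneys at 24 h, and neither was called. Cdkn1a, the inhibitor p21, showed the smallest adjusted p of the pathway genes in all 6 comparisons with saline. It rose by 5.62 ± 0.29, 5.51 ± 0.29 and 5.11 ± 0.29 in miR-155-/- kidneys and 5.07 ± 0.29, 4.61 ± 0.29 and 4.65 ± 0.29 in wild-type kidneys.

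Of 12 replication checkpoint genes, 5, 5 and 3 were higher and 0, 1 and 2 lower in miR-155-/- kidneys, and 4, 1 and 1 higher and 0, 1 and 2 lower in wild-type kidneys. Rad1, a part of the checkpoint clamp, rose by 1.14 ± 0.14 in miR-155-/- kidneys at 24 h. Among 17 cyclins, kinases and inhibitors, 6, 4 and 6 were higher and 3, 1 and 0 lower in miR-155-/- kidneys, and 3, 3 and 3 higher and 5, 5 and 5 lower in wild-type kidneys. Wee1, which restrains Cdk1, rose by 1.82 ± 0.18 in wild-type kidneys at 24 h.

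Of 16 mitosis markers tested, 0, 3 and 3 were higher and 5, 3 and 1 lower in miR-155-/- kidneys at 24, 48 and 72 h, and 0 were higher and 9, 10 and 11 lower in wild-type kidneys. Mki67, the proliferation marker, was -1.02 ± 0.32, -0.88 ± 0.32 and 0.29 ± 0.32 in miR-155-/- kidneys and -1.70 ± 0.32, -2.06 ± 0.32 and -1.95 ± 0.32 in wild-type kidneys. The 72 h interaction was called for 5 of the 16, namely Mki67, Top2a, Bub1, Kif20a and Tpx2, and was 2.24 ± 0.45 (adjusted p = 0.0286) for Mki67. It was also called for Ccna2, cyclin A2, at 2.11 ± 0.34 (adjusted p = 0.00293), for Ccnb1 and Ccnd1, and among the other replication factors for Dtl, which directs the degradation of Cdt1, at 3.08 ± 0.52 (adjusted p = 0.00553), and Dscc1. All were larger in miR-155-/- kidneys. Under normexp the 72 h interaction was called for 5 features in all, against 51 in the main fit, so not all of these genes can have kept the call. These lists and the 39 members share the same saline arrays and the same fit.

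Markers of the cell types that whole kidney can hold were counted in the same fit, and are to be read against the same shares of all features. Of 10 proximal tubule markers, 9 were called lower at 24 h in both genotypes, and at 72 h 8 were lower in miR-155-/- and 4 in wild-type kidneys. Their summed level ran from 8.22 to 8.62 in miR-155-/- and from 8.78 to 8.90 in wild-type kidneys at 72 h, against 9.04 to 9.56 and 9.30 to 9.45 in saline. The summed level of the 8 distal nephron markers also fell. At 24 h it ran from 5.94 to 6.14 in miR-155-/- and from 5.29 to 6.16 in wild-type kidneys. At 72 h it ran from 6.41 to 7.45 and from 6.99 to 7.29, against 7.58 to 8.12 and 7.72 to 7.95 in saline. Macrophage markers were called lower in 5, 5 and 1 of 9 in miR-155-/- kidneys and in 4, 3 and 7 of 9 in wild-type kidneys. Of 6 neutrophil markers, S100a8 and S100a9 were called higher at all times in miR-155-/- kidneys, and their 72 h interactions were 4.94 ± 0.97 (adjusted p = 0.0255) for S100a8 and 4.76 ± 0.91 (adjusted p = 0.0229) for S100a9. Mpo, Elane and Ltf, markers of neutrophil granules, were called at no time. The summed neutrophil level was 1.05 to 2.61 in miR-155-/- and 0.91 to 1.57 in wild-type kidneys at 72 h. The 6 red blood cell markers were all called lower at 72 h in both genotypes, and their summed level at 48 h ran from -0.14 to 6.95 in miR-155-/- and from -0.45 to 0.80 in wild-type kidneys. Lymphocyte markers were lower in 1, 5 and 4 of 10 in miR-155-/- and 1, 0 and 3 of 10 in wild-type kidneys, and endothelial markers in 5, 1 and 2 of 8 and 2, 1 and 1 of 8. The part of these shifts in the replication gene results was not tested.

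Variation within groups was measured as each array's deviation from its group mean. Over the 741 pairs of members the median correlation was 0.16 across 32 arrays, with a range of -0.86 to 0.98, and 62.9% of pairs were above 0. Without the 2 arrays that stood apart it was 0.21, with a range of -0.71 to 0.94, and 74.6% of pairs were above 0. The pair most alike was Cdt1 and Fen1, at 0.98 over 32 arrays and 0.94 over 30, followed over 30 arrays by Cdt1 and Pcna at 0.90 and Mcm3 and Mcm5 at 0.90. Rfc3, Mcm3 and Mcm5 had the highest median correlation with the other members over 30 arrays, 0.42, 0.44 and 0.38, and Mcm10 the lowest, -0.21. These are descriptions: arrays of 1 slide share a hybridisation, and the median correlation of arrays from different groups was 0.24 on the same slide and -0.03 on different slides over all features.

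**Figure D5:**
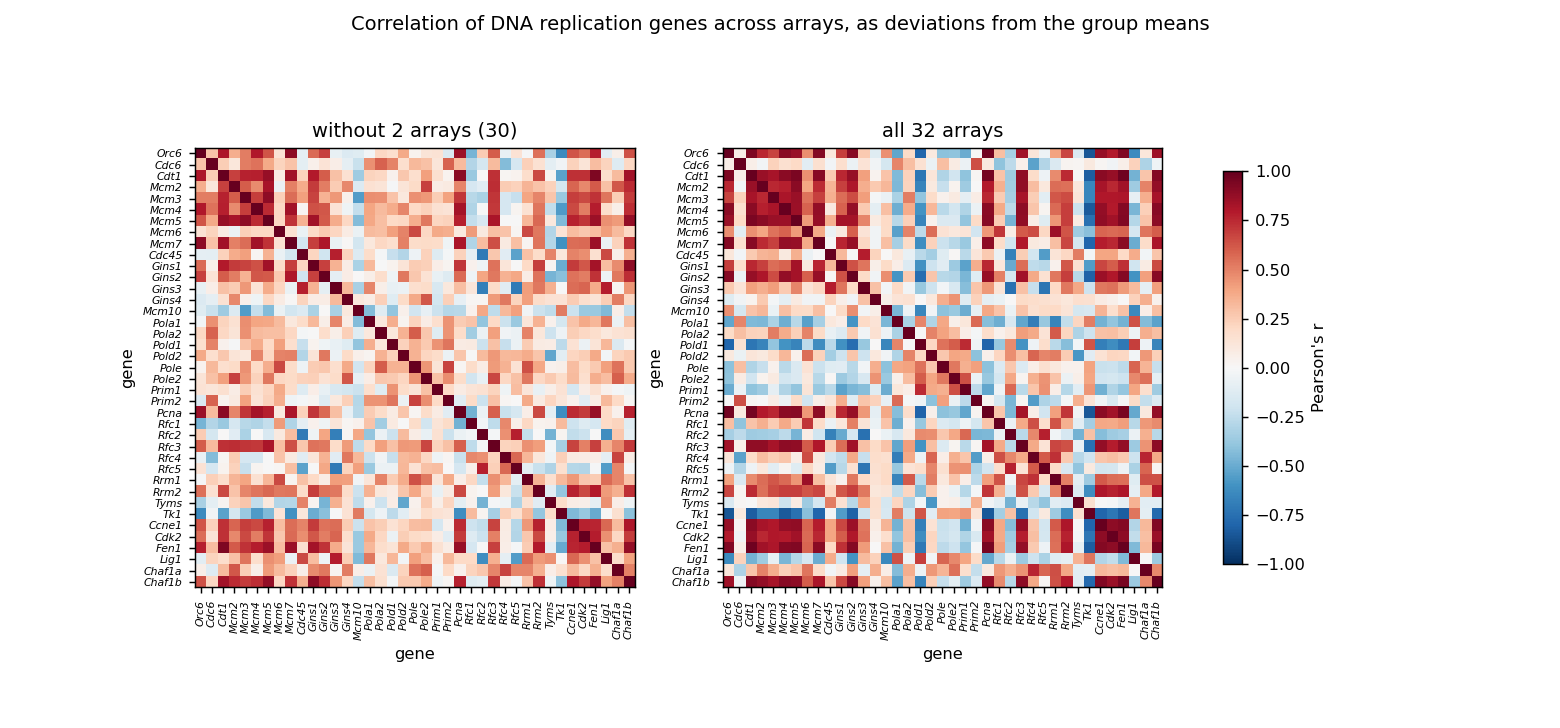
Pearson correlation between each pair of the 39 tested members, over arrays as deviations from their group means, without the 2 miR-155-/- arrays that stood apart (left, 30 arrays) and with all 32 (right). A block of Cdt1, Mcm2, Mcm3, Mcm4, Mcm5, Mcm7, Pcna, Rfc3, Ccne1, Fen1 and Chaf1b is red in both, and Tk1 is blue against it, more so with the 2 arrays.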

How the data were processed

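Total RNA of whole kidneys was hybridised to single-colour Agilent mouse arrays, 4 arrays a group, and read with Feature Extraction 10.7.3.1, per the file headers. The intensity values are the processed signals the authors deposited, already background-subtracted per the file headers. A deposited value table gave the same arrays as a linear intensity, scaled by the authors to a 75th percentile near 1000. Here spots flagged as outliers were left out, log2 was taken, each array was centred on its 75th percentile, and the brightest probe stood for a gene (27228 of 39429 probes matched 1 symbol). A probe was kept if it was well above background in every one of the 4 mice of some group, with 3 or more values in each group.

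One limma model (limma 3.58.1, R 4.3.3; 8 groups, 15 comparisons, 24 residual degrees of freedom) was fitted to all 23759 features, with Benjamini-Hochberg adjustment over all of them and a threshold of 0.05. It was tested on simulated data first. The number of arrays limits the precision. Members and lists were chosen with earlier results of these data known, and values of a few listed genes are not reported here. Values in every array are given for the members with the smallest adjusted p or largest difference in each role group. Pole, Pola1, Mcm3 and Mcm5 were added after their values were seen. Replicate numbers did not pair arrays: deviations from group means had a median correlation of 0.0034 for same-numbered arrays and -0.0064 for others. Slides (8) and scan days (2) held arrays of several groups and were tried as blocks. The other alternatives were normexp (offset 50, on the median signal, since the mean signal was not used here), quantile scaling, no dim-probe filter, probe means, the deposited table, the compared groups alone and leaving out each array.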

Additional observations from a re-analysis of the deposited data

Results flagged for a closer look

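Dixon's test was applied to the 4 arrays of each group for the 15 members given array by array, 120 gene and group combinations, of which about 6 are flagged by chance. It flagged 14, and 8 of them were miR-155-/- replicate 3 at 48 h. That array was the highest of its group for Cdt1 (3.99), Mcm5 (0.29), Gins1 (-2.72), Rfc3 (-1.37), Pcna (3.70), Ccne1 (-0.11), Fen1 (2.82) and Chaf1b (0.95). The other 6 were spread over several groups. Mcm6 was low in wild-type saline replicate 3, at 2.16. Gins1 was low in wild-type replicate 3 at 24 h, at -4.18, and in wild-type replicate 1 at 72 h, at -2.85. Rrm2 was low in miR-155-/- saline replicate 3, at -1.59. Ccne1 was low in miR-155-/- replicate 4 at 72 h, at -2.53. Pola1 was high in wild-type replicate 1 at 72 h, at -3.21.

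The 72 h response differed between genotypes, by the interaction term in limma, for Pole among the members, at 1.21 log2 units larger in miR-155-/- kidneys. Among the wider lists it was larger in miR-155-/- kidneys for Dscc1 (2.13), Dtl (3.08), Ccnd1 (1.15), Ccna2 (2.11) and Ccnb1 (1.88). The mitosis markers Mki67 (2.24), Top2a (2.70), Bub1 (2.76), Kif20a (1.69) and Tpx2 (2.37) were flagged in the same direction. So were S100a8 (4.94) and S100a9 (4.76), from the neutrophil list. Under normexp this interaction was called for 5 features in all and for 0 members, so not all of the genes named here can have kept the call.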

How the results depend on the processing

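Of 1643 recomputed values of the 143 called member differences, 1527 kept direction and call, 114 kept direction but lost the call, and 2 changed sign, both under normexp: Pole in miR-155-/- kidneys at 48 h (0.19) and Pole in wild-type kidneys at 72 h against 24 h (-0.13). Normexp lost 40 of 143 calls and the compared groups alone 19. Members called under normexp were 6 (wild type, 48 h), 3 (wild type, 72 h), and 0 for the 72 h genotype difference and 0 for its interaction. With the compared groups alone they were 15 (wild type, 72 h), 15 (miR-155-/-, 48 h), 7 (genotype, 72 h) and 12 (interaction, 72 h). Quantile scaling gave 3 for that interaction. The causes were not tested. Leaving out each array gave 5 to 9 members in wild-type kidneys at 48 h, with 0 higher without saline replicate 3 (6 called) or 48 h replicate 2 (5 called). It gave 1 to 3 for the 72 h genotype difference, and 1 to 4 for the interaction, the highest of each without miR-155-/- replicate 4 at 72 h. The interaction count was 2 without wild-type saline replicate 1 or 3.

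Replicate numbers did not pair arrays. With a replicate block the counts were 22 higher and 6 lower, 20 and 4, and 16 and 3 in miR-155-/- kidneys at 24, 48 and 72 h, and 1 call (Fen1, 72 h against 24 h) was lost. Prim2, Pola1, Gins1, Pole, Pole2 and Cdc6 each lost at least 1 call of a fall against saline under normexp.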
